A study of Mus musculus with 30 samples.

Results

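The genes described here are 10 protein genes of the mouse mitochondrial genome, taken by name and without the use of any measured value from the 48795 genes of the count tables. They are mt-Nd1, mt-Nd2, mt-Nd4, mt-Nd5 and mt-Nd6, which code for subunits of complex I, mt-Cytb of complex III, mt-Co1, mt-Co2 and mt-Co3 of complex IV, and mt-Atp6 of complex V. The mitochondrial genome holds 37 of the genes in the tables, of which 13 code for proteins, 2 for ribosomal RNAs (rRNAs) and 22 for transfer RNAs (tRNAs). Levels are given as CPM, the counts of a gene set against a fixed total of its library after TMM scaling, the trimmed-mean method of edgeR. Of the 10 genes, 7 had a mean of at least 1 CPM over the libraries, and mt-Co2, mt-Co3 and mt-Atp6, with a mean under 1 CPM, are reported as not measured.

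RNA was sequenced from primary endothelial cells, the cells that line blood vessels, from the brains of WT mice that were given no treatment and were 2, 6, 12, 18 or 24 months old. There were 6 libraries at each age, 3 male and 3 female, and the study asked how expression changes with age after correction for sex. The labels do not say whether mice were pooled for a library, so the p-values measure the spread between these samples. The codes in the library titles differ between ages, and the 2-month libraries share a single code. The titles do not explain the codes, so age cannot be told apart from what they mark. In such bulk samples, fewer cells of a type and less RNA per cell cannot be told apart. Libraries held 24140980 to 50464366 counts in genes. The summed level of 12 endothelial markers was 28420 to 39830 CPM, that of 8 neuron markers 2.09 to 9.96 CPM, and that of 6 choroid plexus markers 164 to 7026 CPM. That of the endothelial markers was 33370 to 39830 CPM at 2 months, 28420 to 33530 at 18 and 28840 to 34830 CPM at 24 months.

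The mitochondrial genome is a small circle that is transcribed from both strands into long precursors, which are cut into messenger, ribosomal and transfer RNAs. Its protein genes code for core subunits of the respiratory chain and of ATP synthase, while all other subunits, and all proteins that copy, transcribe and translate the mitochondrial genome, come from nuclear genes. Brain endothelial cells are known for a high content of mitochondria, which has been linked to the energy cost of transport across the blood-brain barrier.

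The 3 genes without a measured level lie in one stretch of the mitochondrial genome. At mt-Co2 (chrM:7013-7696 in GRCm38, plus strand) the highest count in any of the 30 libraries was 1. At mt-Co3 (chrM:8607-9390) it was also 1, and mt-Atp6 (chrM:7927-8607) had a count of 0 in every library. A count of 0 allows up to 3 counts, which is 0.0594 to 0.124 CPM in these libraries, for counting error only. The other genes of the same stretch, mt-Atp8, mt-Nd3 and mt-Nd4l, which are not among the 10, had a count of 0 in every library as well. The genes on either side of the stretch, mt-Co1 (18039 to 72426 counts per library) and mt-Nd4 (5079 to 19147), were well covered.

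The reference sequences of these genes were compared with those of the measured ones. Every 50-base window of each mitochondrial gene, 50 bases being the read length given in the labels, was looked up in the annotated nuclear transcripts. An identical copy was found for 100% of the windows of mt-Co2, 99.5% of those of mt-Atp6 and 99.9% of those of mt-Co3, and for 62.2% of mt-Nd4, 51.1% of mt-Co1, 8.19% of mt-Nd2 and 7.61% of mt-Nd5. For mt-Nd1, mt-Nd6 and mt-Cytb it was 0%. Each window was looked up alone, and read pairs, which can reach outside a copied stretch, were not considered. The sequences below, read 5′ to 3′ from the GENCODE M21 transcripts of GRCm38, are examples of bases with and without such a copy. Capitals mark bases inside windows that are identical to a nuclear transcript.
mt-Co2 bases 1-50: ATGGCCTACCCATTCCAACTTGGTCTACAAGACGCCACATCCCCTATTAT
mt-Atp6 bases 1-50: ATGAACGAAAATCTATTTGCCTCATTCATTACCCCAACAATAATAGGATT
mt-Co3 bases 1-50: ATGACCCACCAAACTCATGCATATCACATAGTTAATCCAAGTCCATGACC
mt-Co1 bases 1037-1096: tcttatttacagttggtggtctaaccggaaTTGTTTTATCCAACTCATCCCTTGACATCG
mt-Nd4 bases 847-906: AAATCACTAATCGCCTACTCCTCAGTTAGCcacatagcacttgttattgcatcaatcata
mt-Cytb bases 1-50: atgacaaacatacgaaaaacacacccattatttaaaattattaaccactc

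The copies belong to nuclear pseudogenes, most of them in one stretch of chromosome 1. Gm28661 (chr1:24614885-24615565, minus strand) shared 99.5% of the windows of mt-Co2, Gm10925 (chr1:24613974-24614651) the same share of mt-Atp6, and Gm28437 (chr1:24613189-24613971) 99.9% of mt-Co3. The pseudogene Gm28439 (chr1:24611535-24612410) matched mt-Nd4, and Gm29216 (chr1:24615706-24616197) and Gm13340 on chromosome 2 matched parts of mt-Co1. These pseudogenes had few counts too, at most 1 for Gm28661, 2 for Gm10925 and 6 for Gm28437, while Gm28438, which matched mt-Nd3, had 9 to 60 counts. The count tables keep reads that map to several places on a line of their own, 8.64 to 13.3% of all reads, and assign none of them to a gene. For mt-Atp8, which overlaps mt-Atp6, no window was identical to an annotated transcript, and only transcripts could be searched, so the shares are lower bounds. The low values of these 3 genes are therefore not read as levels of expression.

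**Figure D1:**
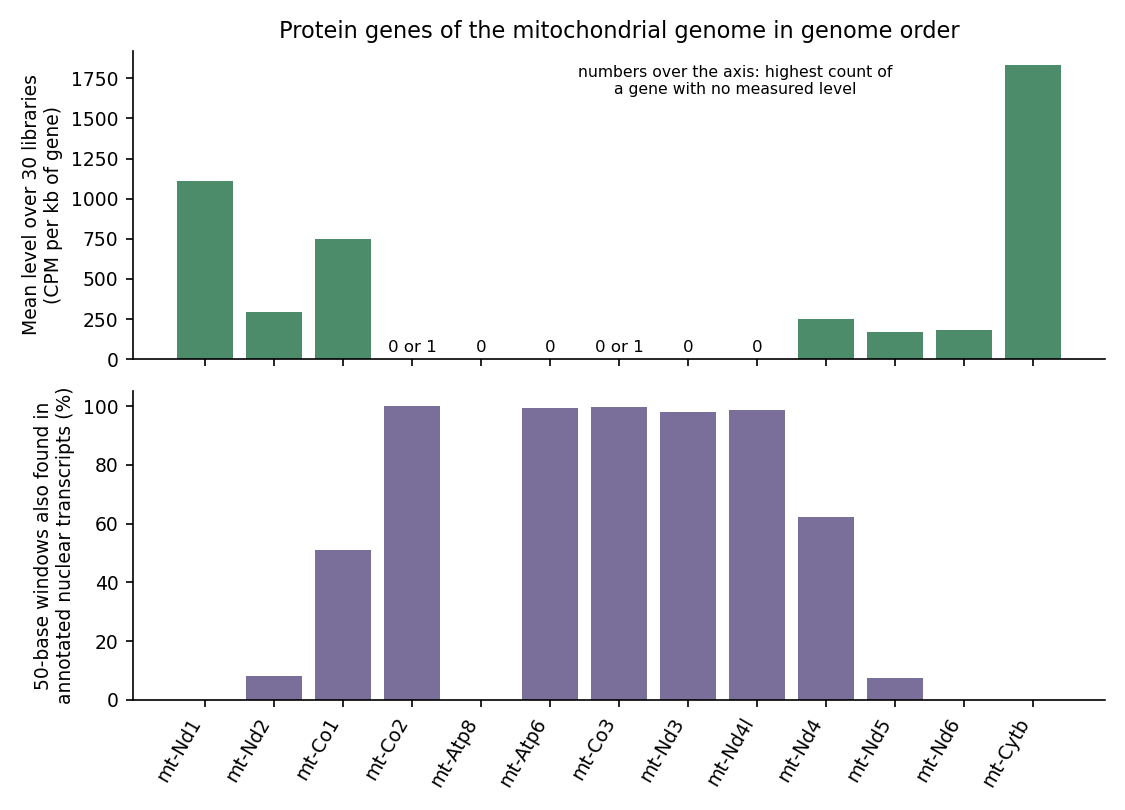
Bars show, for the 13 mitochondrial protein genes in genome order, the mean level over 30 libraries in CPM per kb of gene (top) and the percentage of 50-base windows that are identical to an annotated nuclear transcript (bottom), and numbers over the axis give the highest count of a gene with no measured level. The 6 genes from mt-Co2 to mt-Nd4l had 0 or 1 count, and 5 of them had nearly all windows in nuclear copies.

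Among the 7 measured genes the level per kb of gene was highest for mt-Cytb, at 1830 ± 446 CPM per kb (SD, n = 30 libraries), followed by mt-Nd1 at 1111 ± 291 and mt-Co1 at 748 ± 215 CPM per kb. It was 294 ± 101 for mt-Nd2, 249 ± 75.3 for mt-Nd4, 183 ± 63.1 for mt-Nd6 and 172 ± 55.4 CPM per kb for mt-Nd5. The order of neighbours held in 30 of 30 libraries except for mt-Nd2 above mt-Nd4, in 28, and mt-Nd6 above mt-Nd5, in 18, so the last pair cannot be ordered. Per 1000 windows without a nuclear copy, mt-Co1 stood at 1581 ± 454 CPM, above mt-Nd1 at 1171 ± 307 in 26 of 30 libraries, and mt-Nd4 at 683 ± 207 stood above mt-Nd2 in every library. This second order takes no account of read pairs. The kit does not keep the strand of the RNA. The counts of mt-Nd6, whose coding strand is opposite to that of the other members, therefore cannot be told apart from transcripts of the other strand over the same bases.

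Against 2 months, the measured genes were higher at later ages wherever they differed, and the number that passed the test depended on the age. At 6 months 2 of 7 were higher (edgeR's quasi-likelihood test, adjusted p under 0.05 over the 16844 genes tested), where 4.07% of all genes tested were called higher. At 12 months 2 of 7 were higher, with 1.38% of all genes called higher, and at 18 months 5 of 7, with 10.1%. At 24 months none was, with 4.86% of all genes called higher, although 3 of 7 had an unadjusted p under 0.05 and DESeq2 called 1. None was lower at any age.

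The median log2 change of the 7 genes did not follow the number called. It was 0.48 at 6 months, 0.71 at 12, 0.63 at 18 and 0.38 at 24 months, while the median over all genes tested lay between -0.02 and 0.01. The 4 comparisons share the 2-month libraries. On the straight line of age from 2 to 24 months none of the 7 passed (2 had an unadjusted p under 0.05, and DESeq2 called 1), where 5.72% of all genes rose and 5.21% fell. Without the 24-month libraries 3 of 7 rose. Among the 4 later ages none of the 7 passed the joint test, although 2 had an unadjusted p under 0.05, and 21.7% of all genes were called in either direction.

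The calls at 12 and 18 months were lost with 2 covariates, 1 at each age, with wider errors in both cases. With the share of reads outside genes in the model (10.4 ± 2.13% of reads at 18 and 5.06 ± 0.971% at 2 months, SD, n = 6), 0 of 7 members were called at 18 months. The changes grew, for mt-Nd5 from 0.85 ± 0.20 to 1.21 ± 0.32 (adjusted p = 0.0566, edgeR) and for mt-Nd4 from 0.76 ± 0.19 to 0.92 ± 0.30 (0.147). With the level of astrocyte markers in the model, 0 of 7 were called at 12 months, where mt-Co1 went from 0.73 ± 0.17 to 0.69 ± 0.21 (0.106) and mt-Nd4 from 0.71 ± 0.19 to 0.68 ± 0.23 (0.169). In males alone, with fewer libraries in the fit, the calls at 12 months were lost too, as were those at 18 months except that of mt-Nd5. In females alone those at 12 months were made, and those at 18 months except that of mt-Cytb.

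Markers of other cells, and some endothelial ones, differed between the same ages. Of 8 astrocyte markers 2 were lower at 12 and 4 at 18 months, with a summed level of 441 to 1212 CPM at 2, 272 to 491 at 12 and 272 to 634 CPM at 18 months. Of 8 microglia markers 4 were lower at 12 and 2 at 18 months (249 to 1328, 177 to 249 and 177 to 553 CPM), and of 6 choroid plexus markers 0 and 6 (932 to 4351, 786 to 7026 and 164 to 1459 CPM). Of 6 fibroblast markers 2 were lower at each of these ages. Of 12 endothelial markers 0 were called at 12 months, and 2 were lower and 2 higher at 18 months. Over all genes tested, 1.56% were called lower at 12 and 8.7% at 18 months, and 10.1% were called higher at 18 months. On the slope 2 endothelial markers fell, and 4 of 10 pericyte and 2 of 7 smooth muscle markers rose (5.21% of all genes fell and 5.72% rose). At 18 months 3 of 5 tested leukocyte markers were higher (14.0 to 48.2 CPM at 2 and 20.4 to 97.8 CPM at 18 months), as were 8 of 16 immediate early genes (1672 to 2667 and 1884 to 4393 CPM), which respond to cell handling among other stimuli. No marker of these lists that was tested was at 0 throughout. Apart from the astrocyte covariate, the part of these in the members' values was not tested.

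**Figure D2:**
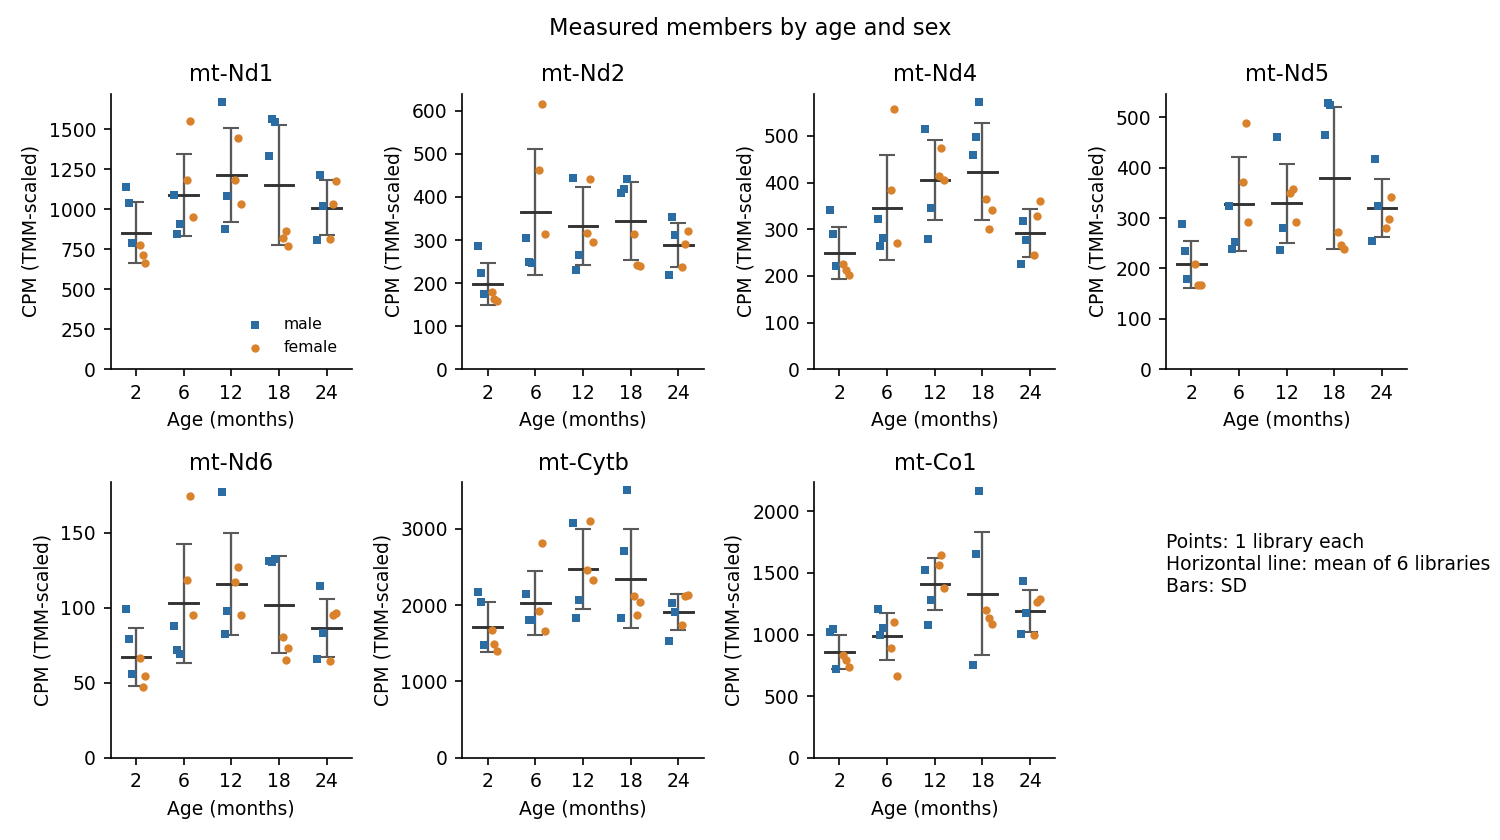
Each point is the level of a gene in 1 library (vertical axis, TMM-scaled CPM) by age in months (horizontal axis), with squares for males and circles for females, and the line and bars give the mean and SD of 6 libraries. The 2-month mean is the lowest of the 5 ages in each of the 7 panels, and the libraries of each later age overlap those of 2 months except for mt-Co1 at 12 months.

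Complex I, which takes electrons from NADH, is the largest complex of the chain, and 5 of its measured subunit genes are members. mt-Nd2 (chrM:3914-4951) stood at 158, 177 and 286 CPM at 2 months (lowest, median and highest of 6 libraries), 248, 309 and 617 at 6 months, 231, 306 and 443 at 12 months, 239, 362 and 442 at 18 months and 219, 301 and 353 at 24 months. All 24 later libraries were above the 2-month mean of 198 ± 49.1 CPM (SD, n = 6), and 4 of 6 at each later age were above every 2-month library. It rose by 0.90 ± 0.22 (log2, SE; adjusted p = 0.0118, edgeR) at 6 months and by 0.80 ± 0.22 (0.0102) at 18 months. At 12 months the change was 0.75 ± 0.22, with an adjusted p of 0.0533, and at 24 months 0.55 ± 0.22, with 0.121.

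mt-Nd5 (chrM:11742-13565), a proton-pumping subunit, had 168, 194 and 288 CPM at 2 months, 238, 308 and 488 at 6 months, 238, 320 and 462 at 12 months, 240, 368 and 529 at 18 months and 255, 312 and 418 CPM at 24 months. It was higher at 6 months by 0.68 ± 0.20 (adjusted p = 0.0346, edgeR) and at 18 months by 0.85 ± 0.20 (0.00416). All 6 libraries of each later age were above the 2-month mean, but only 3 of 6 at 18 months were above every 2-month library. At 24 months the change was 0.63 ± 0.20, just short of the threshold at an adjusted p of 0.0514. The call at 6 months was lost when any single one of 7 libraries was left out (the third male and any female of 2 months, any female of 6 months), with adjusted p up to 0.102.

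mt-Nd4 (chrM:10167-11544), another pump subunit, had 203, 223 and 342 CPM at 2 months, 264, 301 and 557 at 6 months, 280, 410 and 515 at 12 months, 300, 412 and 572 at 18 months and 224, 297 and 360 CPM at 24 months. It was higher at 12 months by 0.71 ± 0.19 (adjusted p = 0.0339, edgeR) and at 18 months by 0.76 ± 0.19 (0.00481). At 12 months 5 of 6 libraries lay above every 2-month library, against 1 of 6 at 24 months. Of its 50-base windows 62.2% are also found in a nuclear transcript, and where along the gene its counts lie is not held in the count tables. The call at 12 months was lost without any single one of 7 libraries (the third male and any female of 2 months, the first male and the first and second female of 12 months), with adjusted p up to 0.0954.

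The remaining complex I genes passed at no age. mt-Nd1 (chrM:2751-3707), a subunit near the site of quinone binding, had 664, 784 and 1140 CPM at 2 months and 875, 1130 and 1672 CPM at 12 months, a change of 0.52 ± 0.19 (adjusted p = 0.129, edgeR). mt-Nd6 (chrM:13552-14070, minus strand) had 47.2, 61.1 and 99.2 CPM at 2 months and 82.5, 107 and 177 CPM at 12 months, a change of 0.80 ± 0.23 (adjusted p = 0.0532). That change was as large as those of the called genes, with a wider error. The genes mt-Nd5 and mt-Nd6 overlap at their ends on opposite strands, so reads there cannot be assigned to either.

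Complex III passes electrons from quinol to cytochrome c, and mt-Cytb (chrM:14145-15288) is its only subunit from the mitochondrial genome. The gene had 1400, 1585 and 2177 CPM at 2 months, 1662, 1865 and 2818 at 6 months, 1826, 2390 and 3108 at 12 months, 1833, 2078 and 3506 at 18 months and 1527, 1970 and 2131 CPM at 24 months. At 18 months it was higher by 0.45 ± 0.16 (adjusted p = 0.0482, edgeR), and 2 of 6 libraries were above every 2-month library. This call lies at the threshold: it was made in 13 of 30 fits that left out 1 library, with adjusted p from 0.0269 to 0.181. The losses came from libraries of every age, among them the third male library of 2 months, all 3 female libraries of 2 months and the second and the third male libraries of 18 months. At 12 months the change was 0.54 ± 0.16 with an adjusted p of 0.0655.

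Complex IV reduces oxygen, and mt-Co1 (chrM:5328-6872), its catalytic subunit, was the only member of this complex that could be measured. It had 719, 813 and 1041 CPM at 2 months, 662, 1025 and 1207 at 6 months, 1081, 1451 and 1647 at 12 months, 750, 1166 and 2163 at 18 months and 994, 1221 and 1432 CPM at 24 months. All 6 libraries of 12 months were above every 2-month library, and the change was 0.73 ± 0.17 (adjusted p = 0.0165, edgeR). At 6 months it was 0.20 ± 0.17 (0.511), and the groups overlapped. At 18 months mt-Co1 was higher by 0.63 ± 0.17 (0.011), a call lost without the third male library of that age (adjusted p = 0.0534). On the line of age its slope was 0.53 ± 0.18 over 22 months, with an adjusted p of 0.0583.

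**Figure D3:**
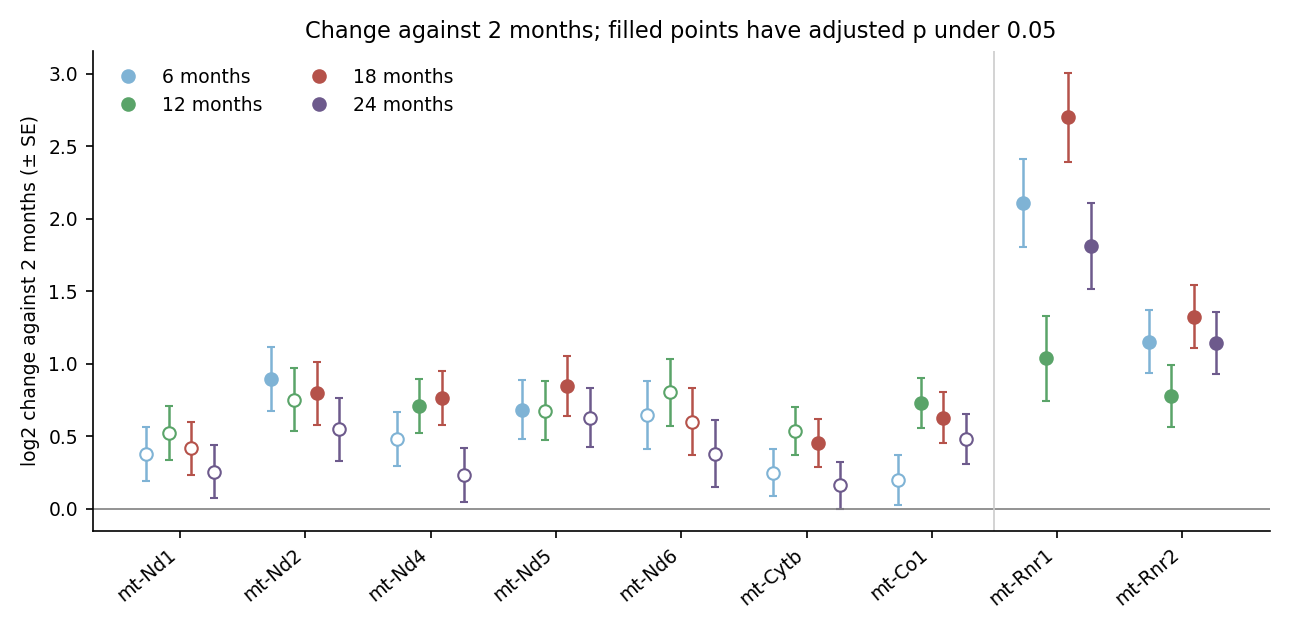
Points give the log2 change of each gene against 2 months (vertical axis, bars are SE) at 6, 12, 18 and 24 months, and filled points have an adjusted p under 0.05. All changes of the 7 protein genes lie above 0, between 0.16 and 0.90, and those of the rRNA genes reach 2.70.

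The members did not keep fixed proportions. In 26 libraries there were 3.44 to 4.93 counts of mt-Co1 per count of mt-Nd2, and in the other 4 libraries 1.79 to 2.11. These 4 were the 3 female libraries of 6 months and the first male library of 18 months. In them mt-Co1 made up 13.9 to 16.7% of the counts of the 7 genes, against 19.1 to 24.5% in the 26, and mt-Nd2 7.37 to 8.66% against 4.53 to 6.12%. The share of mt-Nd6, 2.23 to 2.43% against 1.31 to 2.25%, overlapped slightly, and that of mt-Cytb, 34.1 to 39.1% against 34.6 to 42.6%, overlapped widely.

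Signs of library quality moved with this ratio in part. The share of a library's counts that fell in the longer genes (exon length above the median) was 44.3 to 47.6% in the 3 female libraries of 6 months but 55.4% in the first male library of 18 months, against 46.6 to 61.1% in the 26 others. Erythroid markers were higher at 6 than at 2 months, 5 of 5 (4.07% of all genes were called higher), with a summed level of 792 to 2730 CPM against 436 to 1039. At 6 months it was 1229 to 2730 CPM in the females and 792 to 1448 CPM in the males, whose ratio was 3.97 to 4.24. In the males of 18 months, among them 1 library of low ratio, it was 306 to 1088 CPM. Reads at several places were 11.2 to 13.3% of reads in the 3 female libraries and 10.5% in the male library, against 8.64 to 12.3% in the others. Over the 30 libraries the ratio had a Pearson's r of 0.58 with the share in longer genes and -0.61 with reads at several places, as a description of libraries that share depth and scaling. The part of any of these in the ratio was not tested. The labels state that 6 of the libraries were read as single ends on another instrument but not which, so instrument could not be set beside these values.

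The calls at 6 months were not made without those female libraries, which left only the 3 male libraries of that age. Without the 4 libraries, none of the 7 genes was called at 6 months, where mt-Nd2 changed by 0.33 ± 0.22 (unadjusted p = 0.134, edgeR). At 12 months 6 were then called, at 18 months 5, at 24 months 3 (mt-Nd2, mt-Co1 and mt-Nd5) and on the line of age 1, mt-Nd5, with a slope of 0.68 ± 0.19 (adjusted p = 0.0196). The calls made with all libraries at 12 and 18 months were thus made without the 4 libraries too. This set was chosen after the data were seen and by counts of the members themselves. A low ratio went with a high share of mt-Nd2. Neither the calls lost at 6 months nor the further calls made without this set can therefore be read as a result.

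**Figure D4:**
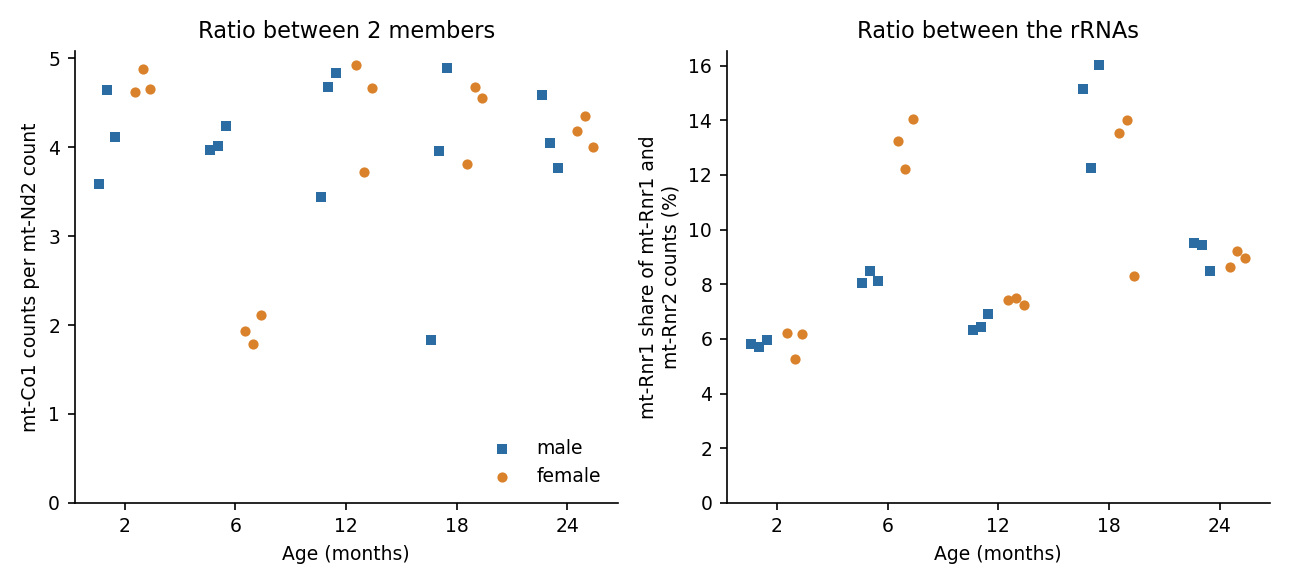
Each point is 1 library by age in months, with squares for males and circles for females, and the vertical axes give the counts of mt-Co1 per count of mt-Nd2 (left) and the percentage of mt-Rnr1 in the counts of both rRNA genes (right). On the left 4 libraries lie at 1.79 to 2.11 and 26 at 3.44 to 4.93, and on the right the 2-month libraries lie at 5.28 to 6.22%.

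No member passed the test of males against females over all ages (0 of 7 by edgeR, 0 of 7 at an unadjusted p under 0.05), where 0.101% of all genes passed. The test of a sex difference in the slope on age called 0 of 7 members, also 0 at an unadjusted p under 0.05, and 0% of all genes. A test of the sex difference in the change at each age was added after the data were seen. At 6 months against 2 months the difference between the sexes passed for 1 of 7, mt-Nd2, with 2.94% of all genes called. The titles of the males and females of 6 months carry different codes, so sex cannot be told apart there from what the codes mark. Its level in males was 175 to 286 CPM at 2 months and 248 to 304 CPM at 6 months, which overlap, and in females 158 to 180 CPM and 313 to 617 CPM, which do not. The change in males was smaller than in females by 1.25 ± 0.33 on the log2 scale (adjusted p = 0.0381, edgeR). In fits within each sex it was 0.25 ± 0.24 in males and 1.47 ± 0.21 in females.

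The same test at the other ages called none of the 7: 0 at 12 months (0% of all genes), 0 at 18 months (0.0237%) and 0 at 24 months (0%), with 0, 1 and 0 members at an unadjusted p under 0.05. The spread between the male and female libraries of 18 months was nonetheless wide for some members. mt-Nd6 had 131 to 132 CPM in the 3 males and 65.1 to 80.3 CPM in the 3 females of that age. The sex difference in its change from 2 to 18 months did not pass (adjusted p = 0.88, edgeR). The titles of the males and females of 18 months also carry different codes, so sex cannot be told apart there from what the codes mark. At 2 months the males had 55.9 to 99.2 CPM of mt-Nd6 and the females 47.2 to 66.2 CPM, which overlap.

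Summed over the members, the share of a library's gene counts was 0.406 ± 0.0926% at 2 months (SD, n = 6), 0.521 ± 0.117% at 6, 0.626 ± 0.131% at 12, 0.619 ± 0.17% at 18 and 0.52 ± 0.0789% at 24 months. By a two-sided exact permutation test, adjusted over 4 comparisons, the share was higher at 12 and at 18 months (adjusted p = 0.0346 for both) and did not pass at 6 (0.0844) and 24 months (0.0664). All 6 libraries of 6, 12 and 18 months and 5 of 6 of 24 months were above the 2-month mean. The call at 18 months was lost without the third male library of that age (adjusted p = 0.0519). Taken over all reads of a library, unassigned ones included, the share passed at neither age (adjusted p = 0.0519 at 12 and 0.0606 at 18 months). With 6 against 6 libraries the smallest p this test can give is 0.00216. The share holds next to no reads of mt-Co2, mt-Co3 and mt-Atp6, and none that mapped to several places.

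Across the 30 libraries the members of complex I moved closely together, and mt-Cytb moved as closely with mt-Nd4. Pearson's r of the log2 levels lay between 0.88 and 0.95 for the 10 pairs of complex I genes, between 0.54 and 0.69 for mt-Co1 with each of them, and between 0.78 and 0.91 for mt-Cytb with each of them, while mt-Co1 and mt-Cytb gave 0.85. These are descriptions over 30 libraries whose values share library, depth and scaling. The summed level of the members had an r of 0.52 with the share of reads at several places, a class that can itself hold reads of the members, -0.56 with reads over several genes, 0.49 with unmapped reads, 0.51 with the level of oligodendrocyte markers, -0.34 with that of astrocyte markers and -0.24 with the share of counts in longer genes. All 7 oligodendrocyte markers were detected, with a summed level of 133 to 918 CPM at 2 months, 144 to 454 at 6, 181 to 1955 at 12, 205 to 455 at 18 and 232 to 680 CPM at 24 months, and 0 of 7 passed at 6, 12 or 18 months. With their level in the model, 4 members were called at 12 months.

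The 2 rRNA genes of the mitochondrial ribosome, which are transcribed ahead of the protein genes and share a strand with all of them but mt-Nd6, were both called higher at each later age. mt-Rnr1 (chrM:70-1024), the small rRNA, had 68.0, 84.6 and 135 CPM at 2 months, 254, 342 and 638 at 6, 135, 186 and 243 at 12, 145, 575 and 1124 at 18 and 237, 319 and 419 CPM at 24 months. The changes were 2.11 ± 0.30, 1.04 ± 0.29, 2.70 ± 0.31 and 1.81 ± 0.30 (adjusted p from 5.68e-07 to 0.0476, edgeR), and all 24 later libraries were above every 2-month library. The later ages differed among themselves for mt-Rnr1 (adjusted p = 0.00175), and for mt-Rnr2 that test did not pass (0.237).

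mt-Rnr2 (chrM:1094-2675), the large rRNA, rose from 1494 ± 449 CPM at 2 months to 3235 ± 837, 2490 ± 486, 3805 ± 1705 and 3241 ± 520 CPM, with changes of 1.15 ± 0.22, 0.78 ± 0.21, 1.32 ± 0.22 and 1.14 ± 0.22 that all passed (adjusted p up to 0.0424, edgeR). Its slope, 0.82 ± 0.26, passed as well (0.0368), and that of mt-Rnr1, 1.37 ± 0.49, did not (0.0701). mt-Rnr1 made up 5.28 to 6.22% of the counts of both rRNAs at 2 months and 16% in the third male library of 18 months. In the third female library of 18 months it was 8.29%, apart from the 12.3 to 16% of the 5 others of that age. The kit primes on poly(A) and the mitochondrial rRNAs carry short tails, so these counts show the rRNA molecules that such priming reached.

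Few tRNA genes had counts enough for a test. Of 22 tRNA genes 6 passed the filter on low counts, mt-Tl1, mt-Tq, mt-Tm, mt-Ta, mt-Tc and mt-Tp, each with a mean under 3 CPM at every age. Only mt-Tq (glutamine) was called, higher at 6 than at 2 months, 2.79 ± 1.95 against 0.86 ± 0.475 CPM, by 1.66 ± 0.47 (adjusted p = 0.0248, edgeR). The slope of none of the 6 passed, with changes from -0.15 to 0.23.

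Nuclear genes that act on the mitochondrial genome are set beside all genes tested, of which 5.72% rose and 5.21% fell on the slope. Beside such shares, a count of 0 in a short list says little. On the slope, 0 of 10 mitochondrial transcription factors passed, among them Polrmt, the RNA polymerase, at -0.23 ± 0.13 (adjusted p = 0.279, edgeR), and Tfam, which packs the mitochondrial DNA, at -0.18 ± 0.17 (0.537). Of 11 replication genes 0 passed and of 12 translation factors 0. Of 20 genes of mitochondrial RNA processing and decay, 2 fell: Mtpap, the mitochondrial poly(A) polymerase, by 0.39 ± 0.09 (0.00458), and Hsd17b10, a subunit of mitochondrial RNase P, by 0.49 ± 0.15 (0.0351). Slirp, which with Lrpprc binds the mitochondrial mRNAs, was higher at 6 months, by 0.52 ± 0.13 (0.015). Of 9 tested regulators of mitochondrial biogenesis 0 passed on the slope, and Ppargc1a stood at -0.66 ± 0.43 (0.344).

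The medians of nuclear subunits of the same complexes had the members' sign at 6 and 12 months and the opposite sign on the slope. At 6 months they were 0.26 for complex I, 0.25 for complex III, 0.44 for complex IV and 0.31 for complex V, and at 12 months 0.18, 0.26, 0.32 and 0.20, beside 0.48 and 0.71 for the members. The median slope of the 7 members was 0.27, and those of nuclear subunits were -0.30 for complex I (36 genes), -0.38 for complex III (9 genes), -0.29 for complex IV (11 genes) and -0.34 for complex V (16 genes), against 0.03 over all genes tested. Of complex I genes 4 fell and 0 rose, among them Ndufa9 (-0.37 ± 0.10, adjusted p = 0.0161, edgeR) and Ndufa8 (-0.40 ± 0.13, 0.0432). Of complex III genes 3 fell, Uqcrc1, Uqcrfs1 and Cyc1, of complex V genes 2, Atp5b and Atp5a1, and of complex IV genes 0 (5.21% of all genes fell on the slope). At 18 months against 2 months, where 5 of 7 members were higher, 8 of 36 nuclear complex I genes, 5 of 9 complex III genes and 4 of 16 complex V genes were lower and 0 higher, while of 11 complex IV genes 0 were lower or higher (8.7% of all genes were called lower). At 6 months 2 complex I genes were higher and 1 lower, and 1 gene each of complexes III, IV and V was higher (4.07% of all genes higher, 4.69% lower). The difference between members and nuclear subunits was not tested.

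Genes of mitochondrial removal and of the switch away from respiration are given for context, beside 5.72% of all genes rising and 5.21% falling on the slope. Bnip3, a mitophagy receptor, rose on the slope by 0.65 ± 0.14 (adjusted p = 0.00234, edgeR), and its relative Bnip3l fell by 0.45 ± 0.12 (0.0158), as did the fission factor Mff by 0.33 ± 0.10 (0.0233), the 3 called among 11 genes of mitophagy and dynamics. Of 12 hypoxia and glycolysis genes 3 rose and 1 fell. They were Slc16a3, which exports lactate, at 2.20 ± 0.27 (2.58e-06), Pdk1, which holds pyruvate back from the mitochondrion, at 0.81 ± 0.13 (8.5e-05), Bnip3, and Eno1, which fell by 0.38 ± 0.10 (0.0127). Their part in the values of the members was not tested.

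The nuclear genes whose log2 level followed the summed level of the members most closely over the 30 libraries were Pts (Pearson's r = 0.77), Kif1c (0.76), Xlr (0.75), Gm2694 (0.75), Mrpl33 (0.74), Gmnn (0.72), Pdcd10 (0.71), Sncg (0.70), Gm28438 (0.70) and BC005537 (0.70). Among them Gm28438 is the pseudogene that matches mt-Nd3 on chromosome 1, and Gm2694 has a mean of 0.702 CPM. Those with the most opposite pattern were Lmf2 (-0.76), Vps37c (-0.75), Ddx54 (-0.74), Strn4 (-0.74) and Trim62 (-0.73). These values describe the same 30 libraries, which share depth and scaling, and were picked from all nuclear genes tested.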

How the data were processed

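The deposited files hold whole-number read counts per gene, not normalized, with a column layout like that of STAR gene counts. Tools named in the submitters' processing notes are STAR 2.5.2b, HTSeq, FastQC 0.11.4 and MultiQC, with the build GRCm38. Per the labels' protocols, SMART-Seq v4 cDNA was tagmented with Nextera XT, without strand or molecular identifiers, so PCR copies are counted. The column that ignores strand was used, and the 4 summary lines were left out (unmapped reads 2.51 to 6.26%, at several places 8.64 to 13.3%, outside genes 3.82 to 13.1%, over several genes 3.61 to 4.21%). Symbols came from GENCODE M21 (48435 of 48795 identifiers matched).

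Counts were filtered by filterByExpr grouped by age (minimum count 10), which left 16844 genes, scaled by TMM and tested in R 4.3.3 with edgeR 4.0.16 (robust quasi-likelihood, sex as covariate, age in months or as a factor), with Benjamini-Hochberg adjustment over all genes tested and a threshold of 0.05. The scripts were tested on simulated data. DESeq2 1.42.0 and other settings were alternatives. The members, lists, tests and naming rule were chosen with earlier results of these data known. Named were all members, other mitochondrial genes passing the filter, up to 4 genes per list with the smallest p on the slope, and the 10 and 5 nuclear genes most like and unlike the members. One gene that this rule names is not reported here. No 2 libraries of a group agreed within sampling noise (chi-square per degree of freedom at least 16).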

Additional observations from a re-analysis of the deposited data

Results flagged for a closer look

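The change of mt-Nd2 from 2 to 6 months differed between the sexes, in a test added after the data were seen. It was smaller in males by 1.25 on the log2 scale (a male minus female difference of -1.25, adjusted p = 0.0381 by edgeR, 495 of 16844 genes called), with all 3 females of 6 months above every female of 2 months. Those females are among the 4 libraries with a low ratio of mt-Co1 to mt-Nd2 counts, and their titles carry other codes than those of the males of 6 months.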

How the results depend on the processing

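In 30 fits that left out 1 library each, 0 to 1 of the 7 members rose on the slope, and 1 to 4 were called at 6, 1 to 6 at 12, 3 to 6 at 18 and 0 to 1 at 24 months, against 0, 2, 2, 5 and 0 with all libraries. The increase in the members' share of gene counts ranged from 0.072 to 0.146 percentage points at 6, 0.188 to 0.254 at 12, 0.158 to 0.244 at 18 and 0.0979 to 0.145 at 24 months. Taken over all reads instead, the share no longer passed at 12 months (an increase of 0.153 percentage points) and at 18 months (an increase of 0.14 points). Over all mitochondrial genes it passed at 6 months (an increase of 0.32 points) and at 24 months (an increase of 0.322 points).

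Counts of called members that moved by over 1.5 times were as follows. On the slope, 1 member was called without TMM, 6 with reads at several places as a covariate, 2 with the share of counts in longer genes, 3 without the 24-month libraries and 1 by DESeq2. At 6 months, 1 was called without the filter, 0 with reads at several places or the longer-gene share as a covariate, 4 with log2 total counts, 1 with astrocyte markers, 0 in males alone, 6 in females alone and 1 without the 24-month libraries. At 12 months, 1 was called without the filter, 5 with reads outside genes, log2 total counts or the longer-gene share, 0 with astrocyte markers, 4 with oligodendrocyte markers, 0 in males alone, 7 in females alone, 4 without the 18-month libraries, 1 without the 24-month libraries and 6 by DESeq2. At 18 months, 0 were called once reads outside genes entered the model, although the 7 changes were larger with wider errors, and 1 in males alone. At 24 months, 2 were called without TMM, 1 with reads outside genes, 3 with reads at several places, 2 with log2 total counts, 2 with the longer-gene share, 3 in females alone, 2 without the 18-month libraries and 1 by DESeq2. The cause was not tested.

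Settings chosen after seeing the data were the longer-gene and oligodendrocyte covariates and the removal of 2 sets of 4 libraries. The test of a sex difference in the change at each age was also added after the data were seen. Without the females of 6 months and the first male of 12 months, 2 members rose on the slope, and 0, 4 and 2 were called at 6, 12 and 24 months. Without the 4 libraries of low mt-Co1 to mt-Nd2 ratio, picked by counts of the members themselves, these counts were 1, 0, 6 and 3.

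Slopes changed sign without the 2-month libraries, to -0.20 for mt-Nd1, -0.38 for mt-Nd2, -0.27 for mt-Nd4, -0.029 for mt-Nd5, -0.40 for mt-Nd6 and -0.16 for mt-Cytb, and in females alone to -0.031 for mt-Nd2 and -0.070 for mt-Nd6. No paired analysis was possible because the labels give the libraries no replicate numbers shared between ages. Depth did not limit the 7 measured members (at least 1129 counts in each library), and mt-Co2, mt-Co3 and mt-Atp6 had at most 1 count in any library.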
